A study of Mus musculus with 8 samples.

Results

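The nuclear genes of oxidative phosphorylation were followed in tumour endothelial cells (ECs) after activation of STING, the sensor of cytosolic cyclic dinucleotides. Members were taken by name: every row starting with Ndufa, Ndufb, Ndufc, Ndufs, Ndufv, Uqcr, Cox4i, Cox5, Cox6, Cox7, Cox8 or Atp5, together with Sdha, Sdhb, Sdhc, Sdhd and Cyc1, leaving out names of pseudogenes and Ndufa4l2. This gave 91 members among 20408 genes. By role they fall into 7 core and 29 accessory subunits of complex I, 8 assembly factors of complex I (Ndufaf1 to Ndufaf8), 4 subunits of complex II, 9 of complex III, 18 of complex IV and 16 of complex V. Ndufa4 was counted with complex IV, where its protein resides, and Atp5s, a relative of the ATP synthase that is also named Dmac2l, stayed with complex V because the name rule takes it. Subunits that carry other names are not members.

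Oxidative phosphorylation runs on 5 enzyme complexes of the inner mitochondrial membrane. Complexes I and II pass electrons from NADH and succinate to ubiquinone, complex III passes them on to cytochrome c, complex IV hands them to oxygen, and complex V makes ATP from the proton gradient built on the way. Most subunits are encoded in the nucleus and imported, while a small set is encoded in mitochondrial DNA, so both genomes have to supply parts of the same machine. ECs are known to draw much of their ATP from glycolysis, and respiration is known to matter for their proliferation.

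Single-cell RNA-seq libraries were made from live CD45-/CD31+ cells sorted from mammary tumours, 2 mice per group and 1 library per mouse. In the spontaneous groups the tumours arose in female MMTV-PyMT mice, in which the polyoma middle T oncogene is driven by the mouse mammary tumour virus promoter. In the implanted groups cultured MMTV-PyMT tumour cells had been placed in the mammary fat pad of female mice. The study's methods name no transgene for these recipients. Each model received PBS or 3′3′cGAMP, a STING agonist, into the tumour (i.t.) and was sampled 3 h later. All animals were adults; the labels give the strain as c57bl/6 and the study's methods as FVB, which was not settled. The tumour cells of all groups therefore shared the oncogene, and the groups shared the site, the sort and the time. ECs belong to the host, so the host's genotype differed along with the model and cannot be told apart from it. The cells were those still alive at that time, so a lower level of a transcript and a loss of cells rich in it cannot be told apart.

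Of 8204 deposited cells, 7159 with at least 1 UMI of Pecam1 (CD31) were used, 601 to 1529 per library. Their 8 endothelial markers summed to between 5477 and 6683 CPM, a scale on which 10000 stands for 1% of a cell's UMIs. Markers of other cells were present at lower levels: 7 mural genes summed to between 76.7 and 736 CPM, 8 immune genes to between 15.6 and 274 CPM, and 7 epithelial tumour genes to between 53.3 and 377 CPM. The first implanted cGAMP library stood apart, with a median of 3049 UMIs per cell against 9523 to 14708 in the other 7, and with the highest immune and epithelial sums. Cells with UMIs of at least 2 of 12 proliferation genes made up 10.98% to 21.06% of the PBS libraries and 5.23% to 8.06% of the cGAMP libraries. The members gave 1749441 UMIs in all, and a median of 62 to 69 members was detected per cell, or 35 in the shallow library.

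Summed over all members, the nuclear genes held a smaller share of the transcriptome after cGAMP in both models. In spontaneous tumours they made up 1.91% and 1.86% of the UMIs of an average cell in the PBS libraries and 1.75% and 1.81% in the cGAMP libraries. In implanted tumours the shares were 1.95% and 2.05% after PBS and 1.69% and 1.65% after cGAMP. The groups did not overlap in either model, and cGAMP group means differed from PBS by -5.56% (spontaneous) and -16.73% (implanted). With 2 libraries per group, an exact permutation test on a single value cannot reach significance, so these sums are given without a test. The implanted shares kept their order in the cells with at least 2000 UMIs, at a mean of 1.96% after PBS and 1.67% after cGAMP, and in the cells without proliferation UMIs, at 1.95% and 1.66%.

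The mitochondrial genome supplies the remaining subunits, and its transcripts differed by more. The 13 protein-coding genes of mitochondrial DNA summed to 4.54% and 4.66% of UMIs after PBS and 3.28% and 3.56% after cGAMP in spontaneous tumours, and to 4.33% and 4.39% against 3.22% and 2.92% in implanted tumours. The group means changed by -25.66% and -29.46%. For each 100 UMIs of mitochondrial origin there were thus 42.2 and 40.0 UMIs of the nuclear members in the spontaneous PBS libraries, 53.3 and 51.0 after cGAMP, 45.2 and 46.8 in the implanted PBS libraries, and 52.4 and 56.4 after cGAMP. The ratio was higher in every cGAMP library than in any PBS library. The authors had discarded cells of high mitochondrial share, and the largest share in a deposited cell was 9.88% to 10.0% per library. The mitochondrial sums and these ratios are thus cut from above, and the part of that cut in the differences was not tested. The 78 mitoribosomal protein genes, which build the ribosome that translates the mitochondrial messages, differed by 1.75% (spontaneous) and -6.84% (implanted). The sum of the 15 glycolysis genes went the other way, by 25.74% and 20.70%.

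**Figure D1:**
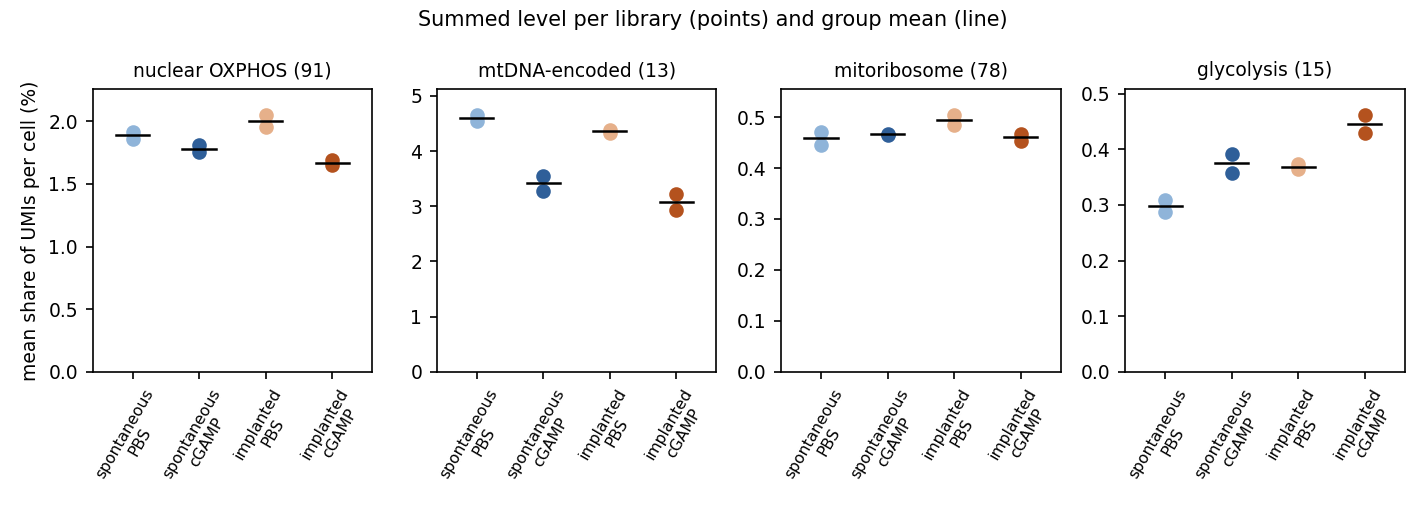
Mean share of a cell's UMIs (%) held by 4 gene sets in each library (points, 2 per group) with the group mean (line); each panel starts at 0. The nuclear members lie at 1.65% to 1.69% in the implanted cGAMP libraries against 1.95% to 2.05% after PBS, and the mitochondrially encoded genes show wider gaps in both models.

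By complex, the sums differed most in complexes IV and V. In implanted tumours complex IV held 0.545% and 0.570% of UMIs after PBS and 0.450% and 0.443% after cGAMP, a change of -19.90%. Complex V went from 0.561% and 0.592% to 0.480% and 0.469%, a change of -17.66%. The change was -16.79% for complex III, -13.66% and -12.29% for the accessory and core subunits of complex I, -10.20% for the assembly factors and -9.60% for complex II. In spontaneous tumours the order was similar at a smaller size, with -8.31% for complex IV, -6.76% for complex V and -5.84% for complex III, and 0.30% for complex II. The shares of a few highly expressed subunits weigh most in such sums, so the genes were tested one by one.

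For each gene the mean CPM over the ECs of a library was compared on the log2(CPM + 1) scale with limma, across all 8 libraries, with Benjamini-Hochberg adjustment over the 10424 genes that reached 5 CPM in at least 2 libraries. A gene is called here when its adjusted p is under 0.05. Of the members, 86 passed the filter and 5 did not: Cox6a2, Cox6b2, Cox7a1, Cox8b and Cox8c. Fold changes below are on that log2 scale, cGAMP over PBS unless said otherwise.

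In implanted tumours 36 of the 86 tested members were called, all of them lower, against 16.4% of all genes called lower and 8.6% called higher. The members' median log2 fold change was -0.22, beside -0.10 over all genes, and 76 estimates were negative. Both cGAMP libraries lay below both PBS libraries for 69 members, against 41.6% of all genes, and above them for 1 member, against 21.6%. The members are highly expressed, which makes a change of a given size easier to call: among the 1158 genes of the same level, those between the members' lower and upper quartiles of 103 and 296 CPM, 289 were called lower with a median of -0.10, and of the 42 members in that range 20 were called lower with a median of -0.23. The cytosolic ribosomal proteins, another set of high and even expression, had 36 of 82 called lower and 2 called higher, with a median of -0.19. When libraries were scaled by median-of-ratios in place of total UMIs, 20 members remained called, all lower and all among the 36, the members' median was -0.12 beside -0.01 over all genes, and the share of all calls that were higher went from 34.3% to 51.5%.

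The call count depended on single libraries. It was 14 without the second implanted PBS library and 22 without the first, and between 26 and 33 when any other library was left out, with 1 of the 33 higher, Cox4i2, when either spontaneous PBS library was absent (adjusted p = 0.0159 and 0.0213, and 0.0159 to 0.701 over its 18 alternatives). In the cells with at least 2000 UMIs 31 members were called lower. It was 28 without the proliferating cells and 28 without cells that carried UMIs of 2 or more genes of another cell type, and 20 when all of these limits were applied together (an alternative chosen after the data were seen), with a median of -0.15 beside -0.11 over all genes. Cells with UMIs of at least 2 mural genes made up 2.10% and 1.91% of the PBS and 9.42% and 9.60% of the cGAMP libraries, and the immune markers summed to 28.5 and 15.6 CPM and then 274 and 82.3 CPM, while the epithelial sum was higher only in the shallow library (67.7 and 53.3 CPM, then 377 and 53.9 CPM). Their part in the remaining difference was not tested further.

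The largest called fall among members of at least 10 CPM was that of Cox7a2l, which encodes a factor known to join complexes III and IV into supercomplexes. Whether it has this role in these mice was not tested, and only its transcript was measured. Its level was 437 and 440 CPM in the implanted PBS libraries and 263 and 238 CPM after cGAMP, against 455 and 429 CPM and then 355 and 404 CPM in spontaneous tumours. The implanted cGAMP libraries were therefore the lowest of the 8 and did not overlap with any other group. The log2 fold change was -0.81 ± 0.09 (SE; limma adjusted p = 0.000208) in implanted and -0.22 ± 0.09 (adjusted p = 0.119) in spontaneous tumours. The implanted call held in all 20 alternatives, with adjusted p between 0.000133 and 0.003.

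Uqcr11, a small subunit of complex III, came next. It stood at 267 and 292 CPM after PBS and at 180 and 176 CPM after cGAMP in implanted tumours, and at 268 and 246 CPM against 199 and 216 CPM in spontaneous tumours. It was lower in both cGAMP libraries of both models, by 0.65 ± 0.08 on the log2 scale in implanted (adjusted p = 0.000591) and by 0.31 ± 0.08 in spontaneous tumours (adjusted p = 0.0413). The implanted call held in all 20 alternatives. Ndufb10, an accessory subunit of complex I, followed with 137 and 156 CPM after PBS and 103 and 103 CPM after cGAMP, a change of -0.51 ± 0.09 (adjusted p = 0.00357). In spontaneous tumours its levels were 140 and 126 CPM and then 126 and 122 CPM, with no call (-0.10, adjusted p = 0.516).

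**Figure D2:**
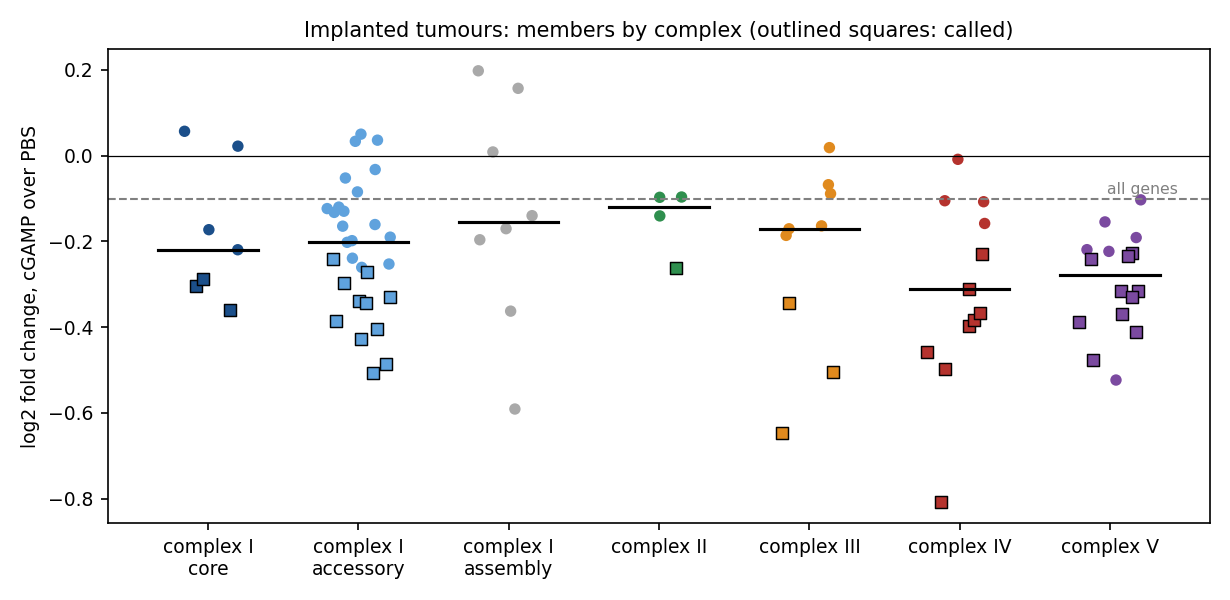
Log2 fold change of cGAMP over PBS in implanted tumours for each tested member, by complex; outlined squares are called members, bars are medians per complex, the dashed line is the median of all 10424 tested genes (-0.10), and Cox4i2 (1.04) lies above the plotted range. Complexes IV and V have the lowest medians (-0.31 and -0.28), and Cox7a2l and Uqcr11 lie furthest down.

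The promoters were read for letters bound by factors known to drive respiratory genes. RefSeq promoters of 300 bases (250 before the transcription start, GRCm38.p6) were matched for 75 members. The letters CCGGAAG, bound by GABPA and other ETS factors, occurred on either strand in 32.3% of 31 members called lower in implanted tumours, in 18.2% of 44 other members and in 21.5% of 8178 tested genes. ATGGCGG, bound by YY1, occurred in 1 of the 31 and in 11 of the 44, beside 10.1% of tested genes. GCATGCG, the core of the NRF1 motif, occurred in 12.9%, 20.5% and 7.67%, and TCAAGGTCA, bound by oestrogen-related receptors, in 2 of the 31, in 0 of the 44 and in 0.281%. Over all 27025 genes with a promoter entry these letters were found in 9.93%, 4.69%, 4.01% and 0.466%. These are counts of letters in the window and describe no binding.

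The last 120 bases before the start that RefSeq gives are shown for 4 strongly lowered members and for 2 whose estimates were nearest 0 among the 24 members with a single entry, no more than 15 exon bases in the window, so that both kinds of window can be read side by side. For Cox7a2l that start lies inside the gene as GENCODE annotates it (83501918 to 83517330 on chromosome 17), so its window precedes an internal start. Capitals mark the GABPA/ETS letters in either orientation, the only ones of the 4 motifs found in these windows. The windows are, on the strand of the gene, Cox7a2l (chr17:83514334-83514453, minus strand), Uqcr11 (chr10:80406822-80406941, minus strand), Uqcrh (chr4:116075071-116075190, minus strand), Ndufv3 (chr17:31519995-31520114, plus strand), Ndufaf8 (chr11:120098814-120098933, plus strand) and Ndufa3 (chr7:3617253-3617372, plus strand).
Cox7a2l: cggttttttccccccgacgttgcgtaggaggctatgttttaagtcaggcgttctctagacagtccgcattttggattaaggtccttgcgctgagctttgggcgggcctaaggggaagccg
Uqcr11: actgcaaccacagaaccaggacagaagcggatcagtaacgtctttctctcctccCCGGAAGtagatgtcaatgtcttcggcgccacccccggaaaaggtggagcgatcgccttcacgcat
Uqcrh: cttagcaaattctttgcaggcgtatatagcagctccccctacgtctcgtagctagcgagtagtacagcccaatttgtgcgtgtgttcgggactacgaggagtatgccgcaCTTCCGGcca
Ndufv3: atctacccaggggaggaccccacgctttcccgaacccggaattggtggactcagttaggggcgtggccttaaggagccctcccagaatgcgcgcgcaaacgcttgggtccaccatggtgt
Ndufaf8: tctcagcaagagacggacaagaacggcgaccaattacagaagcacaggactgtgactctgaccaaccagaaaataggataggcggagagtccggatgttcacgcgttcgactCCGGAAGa
Ndufa3: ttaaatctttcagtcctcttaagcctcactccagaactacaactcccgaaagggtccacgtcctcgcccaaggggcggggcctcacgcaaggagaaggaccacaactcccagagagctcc
The letters began 66 bases before the start of Uqcr11, 10 before that of Uqcrh (reverse orientation) and 8 before that of Ndufaf8, so they were in 2 of the 4 windows of lowered members and in 1 of the other 2.

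Among the core subunits of complex I, which bind NADH, the iron-sulphur clusters and the ubiquinone site, 3 of 7 were called lower in implanted tumours, among them Ndufv1. Ndufv1, the NADH-binding subunit, went from 85.7 and 89.7 CPM to 68.2 and 68.1 CPM (-0.36 ± 0.08, adjusted p = 0.0119), against 85.1 and 79.4 CPM and then 77.9 and 76.7 CPM in spontaneous tumours. Its call held in 16 of 20 alternatives (adjusted p 0.00884 to 0.203) and was lost without the second implanted PBS library (adjusted p = 0.0886), with summed UMIs, in cells with at least 2000 UMIs and in such cells without proliferation or other-type UMIs. Ndufs1, the largest iron-sulphur subunit, was not called, at 32.6 and 37.2 CPM and then 31.5 and 30.1 CPM (-0.17, adjusted p = 0.301). Ndufs7, which carries the last iron-sulphur cluster before ubiquinone, had 87.4 and 98.98 CPM after PBS and 111 and 84.5 CPM after cGAMP, so its groups overlapped.

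Of the 29 accessory subunits of complex I, 11 were called lower and none higher, with log2 fold changes of the whole set between -0.51 and 0.05. Ndufb11 fell from 239 and 242 CPM to 175 and 183 CPM (-0.43 ± 0.07, adjusted p = 0.0023), and this call held in all 20 alternatives. Ndufc1 fell from 167 and 173 CPM to 127 and 129 CPM (-0.40 ± 0.08, adjusted p = 0.00508), with the call kept in 19 of 20, and Ndufv3 from 125 and 134 CPM to 96.3 and 88.1 CPM (-0.49 ± 0.09, adjusted p = 0.00428), kept in all 20. Ndufa8, the accessory subunit with the highest level, had 338 and 342 CPM and then 305 and 288 CPM, which did not pass (-0.20, adjusted p = 0.0739). Ndufa6 and Ndufa13 had estimates of 0.03 and 0.05 and overlapping libraries, with 209 and 203 CPM against 213 and 209 CPM, and 221 and 243 CPM against 246 and 234 CPM.

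None of the 8 assembly factors, which help to build complex I and are not part of it, was called in implanted tumours, with 2 of them at an unadjusted p under 0.05. They are expressed at 6.32 to 56.6 CPM on average, well under most subunits. Ndufaf8, the highest, read 57.3 and 61.7 CPM after PBS and 59.0 and 60.6 CPM after cGAMP. The lowest estimate was that of Ndufaf7, named after its values were seen, at 15.2 and 15.2 CPM and then 9.46 and 10.0 CPM (-0.59 ± 0.20, adjusted p = 0.0539). Of 37 tested assembly factors of the other complexes and of complex I that carry other names, 3 were called lower and 3 higher, with a median of -0.06.

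Complex II is the succinate dehydrogenase, which also serves the citric acid cycle, and had the smallest change of its sum. Sdhd, one of its membrane anchors, was the only subunit called, at 98.1 and 97.4 CPM after PBS and 79.5 and 83.3 CPM after cGAMP (-0.26 ± 0.08, adjusted p = 0.0422). This call held in only 5 of 20 alternatives and was lost whichever of the 8 libraries was left out, with adjusted p up to 0.153 there and between 0.019 and 0.685 over all 20. Sdha, the flavoprotein, had 77.3 and 80.7 CPM and then 68.7 and 79.3 CPM. Sdhb, the iron-sulphur subunit, had 116 and 120 CPM and then 114 and 106 CPM, and Sdhc, the other anchor, 60.5 and 59.96 CPM and then 55.7 and 53.4 CPM. Of 19 tested genes of the citric acid cycle and pyruvate oxidation, which leave out these 4, 2 were called lower.

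In complex III, 3 of 9 subunits were called lower: Uqcr11, Uqcrh and Uqcr10. Uqcrh, the acidic hinge protein and the subunit with the highest level, went from 529 and 529 CPM to 389 and 358 CPM (-0.50 ± 0.07, adjusted p = 0.00111), a call kept in all 20 alternatives. The nuclear-encoded subunits that carry redox centres were not called. Uqcrfs1, the Rieske iron-sulphur protein, had 106 and 107 CPM and then 93.3 and 96.3 CPM (-0.17, adjusted p = 0.138), and Cyc1, cytochrome c1, had 101 and 111 CPM and then 98.5 and 87.5 CPM (-0.19, adjusted p = 0.161). Uqcrq, a small subunit, overlapped between the groups at 300 and 325 CPM and then 325 and 308 CPM.

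Complex IV had 8 of 13 tested subunits called lower. Cox4i1, the ubiquitous form of subunit 4 and the member with the highest level of all, went from 842 and 843 CPM to 654 and 574 CPM (-0.46 ± 0.08, adjusted p = 0.00325). Cox6a1, the form of subunit 6a found outside muscle, went from 253 and 268 CPM to 199 and 200 CPM (-0.38 ± 0.07, adjusted p = 0.00424), and both calls held in all 20 alternatives. Ndufa4 went from 441 and 475 CPM to 365 and 345 CPM (-0.37 ± 0.08, adjusted p = 0.0117), with the call lost in 1 of 20 alternatives, without the second implanted PBS library (adjusted p = 0.094, range 0.00902 to 0.094). Cox6b1, which faces the intermembrane space, changed less, from 445 and 467 CPM to 390 and 387 CPM (-0.23 ± 0.07, adjusted p = 0.0283), and kept its call in 12 of 20 alternatives, losing it when any of the 4 implanted libraries was left out (adjusted p 0.058 to 0.171, and 0.00838 to 0.327 over all 20).

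Other small subunits of the same enzyme were not called. Cox7a2, the form of subunit 7a found outside muscle, had 374 and 410 CPM and then 340 and 363 CPM (-0.16, adjusted p = 0.147), Cox8a had 526 and 565 CPM and then 510 and 503 CPM (-0.11, adjusted p = 0.282), and Cox7c, chosen after its values were seen, had 493 and 525 CPM and then 491 and 521 CPM (-0.01, adjusted p = 0.945). Apart from Cox7a2l and Cox4i2, the tested members of complex IV ranged in log2 fold change from -0.50 to -0.01. The muscle forms were nearly absent: 3 UMIs of Cox6a2, 110 of Cox7a1 and 17 of Cox8b were counted over all 8 libraries. Cox8c, which is not a muscle form, had 0 UMIs, and Cox6b2, a testis form, stayed between 1.28 and 3.98 CPM.

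Cox4i2, the form of subunit 4 known from lung and from oxygen-sensing smooth muscle, was the 1 member whose estimate exceeded 1 in both models, without a call (1.54, adjusted p = 0.0531 in spontaneous; 1.04, adjusted p = 0.12 in implanted tumours). Its levels were low, at 3.59 and 13.3 CPM after PBS and 25.8 and 19.6 CPM after cGAMP in spontaneous tumours, and at 1.55 and 1.47 CPM and then 3.59 and 4.81 CPM in implanted tumours. Between 57.7% and 98.4% of its UMIs per library came from the cells with UMIs of at least 2 of 7 mural genes, which made up 2.69%, 5.66%, 20.6% and 13.28% of the spontaneous and 2.10%, 1.91%, 9.42% and 9.60% of the implanted libraries in the same order. Within these mural-marked cells Cox4i2 stood at 50.7 and 199 CPM after PBS and 123 and 140 CPM after cGAMP in spontaneous tumours. In implanted tumours it stood there at 52.4 and 46.4 CPM and then 12.8 and 29.85 CPM. The level per mural-marked cell thus differed between libraries as well as the share of such cells. In the remaining ECs Cox4i2 stood between 0.456 and 2.64 CPM in all 8 libraries. It was called in the spontaneous response in 6 of the 18 alternatives in which it was tested (adjusted p 0.00308 to 0.248), among them the one without the second spontaneous PBS library, where mural cells were more frequent than in the first (2.36, adjusted p = 0.00308). The summed mural markers were 85.6 and 448 CPM, then 736 and 581 CPM, in spontaneous tumours, and 106 and 76.7 CPM, then 222 and 123 CPM, in implanted tumours.

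**Figure D3:**
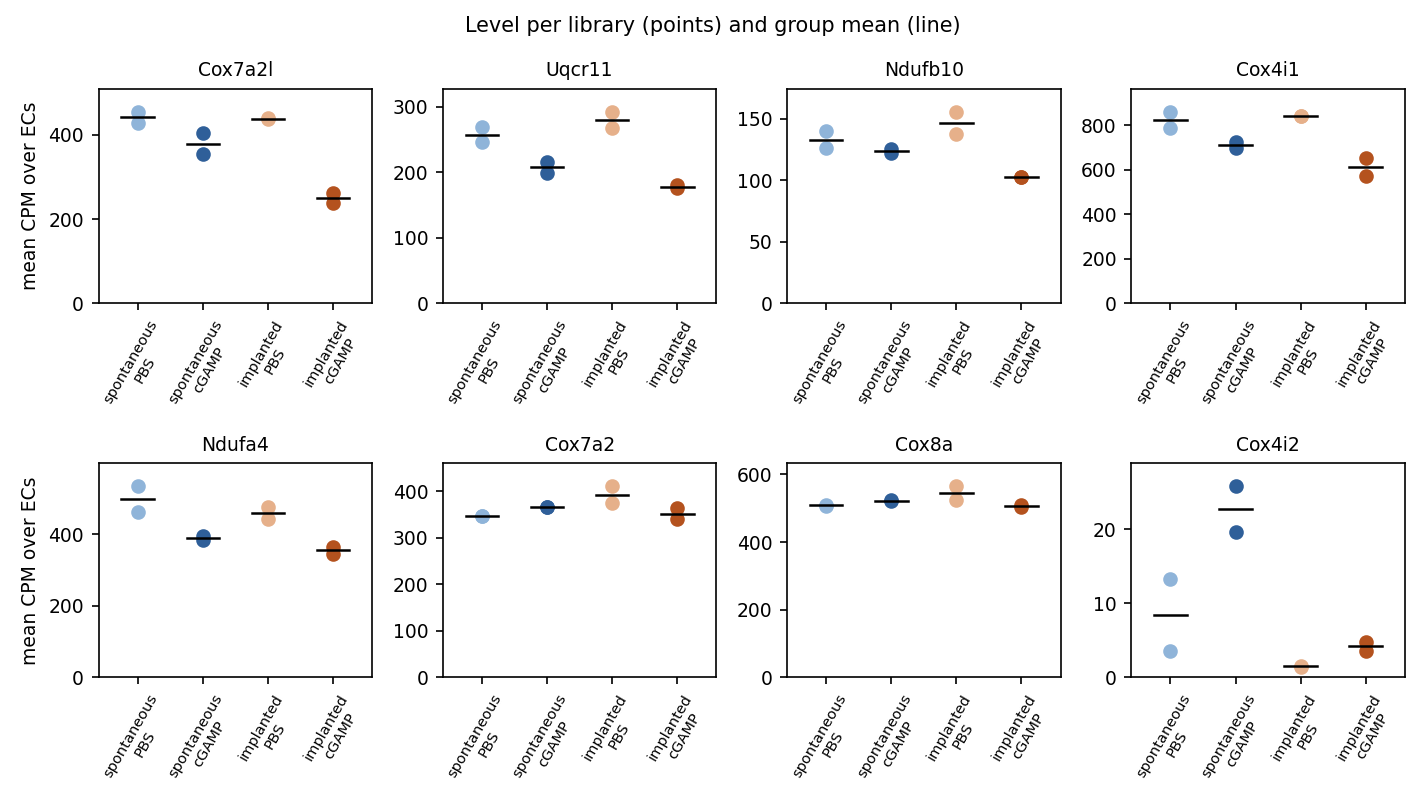
Mean CPM over the ECs of each library (points) and the group mean (line) for 8 members; each vertical axis starts at 0. Cox7a2l, Uqcr11, Ndufb10 and Cox4i1 are lowest in the implanted cGAMP libraries, and Cox7a2 and Cox8a change little. Cox4i2 is highest in the spontaneous cGAMP libraries.

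Complex V, the ATP synthase, had the largest share called of the 7 roles, 10 of 16, all lower, and all 16 estimates were negative with no overlap between the groups. Atp5a1, the alpha subunit of the catalytic head, went from 360 and 365 CPM to 273 and 281 CPM (-0.39 ± 0.07, adjusted p = 0.00317). Its partner Atp5b, the beta subunit, with which it forms the catalytic sites, went from 536 and 577 CPM to 521 and 515 CPM and was not called (-0.10 ± 0.07, adjusted p = 0.294). The 3 genes that encode the same mature subunit c of the proton-carrying ring also differed. Atp5g2 went from 498 and 500 CPM to 389 and 361 CPM (-0.41 ± 0.08, adjusted p = 0.00411) and Atp5g3 from 214 and 215 CPM to 175 and 170 CPM (-0.32 ± 0.07, adjusted p = 0.0105), while Atp5g1 had 290 and 312 CPM and then 283 and 235 CPM (-0.22, adjusted p = 0.186). The calls of Atp5a1 and Atp5g2 held in all 20 alternatives, and that of Atp5g3 was lost in 3 of 20, without either implanted PBS library and with median-of-ratios scaling (adjusted p 0.0513 to 0.0658, and 0.00767 to 0.0658 over all 20).

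In spontaneous tumours 4 of the 86 members were called lower and 0 higher, beside 7.59% and 5.09% of all genes, and the median was -0.07 beside -0.10 over all genes. Both cGAMP libraries were below both PBS libraries for 40 members and above them for 15, beside 41.5% and 18.8% of all genes. The calls were Ndufa4, Cox6a1, Uqcr11 and Ndufaf4, the first 3 of which were also called in implanted tumours. Ndufa4 went from 534 and 462 CPM to 384 and 394 CPM (-0.35 ± 0.08, adjusted p = 0.0265), and Cox6a1 from 245 and 250 CPM to 195 and 205 CPM (-0.30 ± 0.07, adjusted p = 0.0235). Ndufaf4, an assembly factor of complex I, went from 35.6 and 40.1 CPM to 28.3 and 28.4 CPM (-0.40 ± 0.11, adjusted p = 0.0415). All 4 calls, like the count, depended on single libraries: 0 members were called without the first spontaneous PBS library and without either spontaneous cGAMP library, 2 (both lower and among the 4) without either implanted PBS library, and 7, 1 of them higher, without either implanted cGAMP library. Without the second spontaneous PBS library 2 were called, Ndufa4 lower and Cox4i2 higher. With median-of-ratios scaling none was called, 35 rather than 58 estimates were negative, the median turned to 0.03 beside 0.00 over all genes, and the share of all calls that were higher went from 40.2% to 66.4%. Among members of at least 10 CPM with a positive estimate, none of them called, the lowest unadjusted p were those of Ndufaf8, at 47.9 and 52.5 CPM and then 54.7 and 59.2 CPM (0.18, adjusted p = 0.248), and of Sdhb, at 103 and 93.2 CPM and then 106 and 112 CPM (0.15, adjusted p = 0.277).

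The mitochondrially encoded partners of the members were tested in the same fit. Of the 13, 10 were called lower in each model, with medians of -0.50 in spontaneous and -0.55 in implanted tumours. The genes named next were chosen after their values were seen. In complex IV, mt-Co3 changed by -0.48 and -0.54 (adjusted p = 0.0084 and 0.00247) while mt-Co1 had estimates of 0.05 in both and nuclear Cox4i1 had -0.21 (adjusted p = 0.117) and -0.46. In complex III, mt-Cytb changed by -0.96 and -1.08 (adjusted p = 7.9e-05 and 4.8e-05), beside -0.06 and -0.17 for Uqcrfs1. Cycs, the cytochrome c that links complexes III and IV, rose by 0.45 in implanted tumours (adjusted p = 0.00246; 0.23 and adjusted p = 0.0727 in spontaneous tumours), and Slc25a4, which exchanges ATP for ADP across the membrane, fell in both, by 0.35 and 0.70 on the log2 scale (adjusted p = 0.0149 and 0.000199). Of 11 tested regulators of mitochondrial genes, 1 was called lower in implanted tumours and 0 in spontaneous tumours (limma; 1 at an unadjusted p under 0.05): Tfb2m, a transcription factor of mitochondrial DNA, at -0.95 (adjusted p = 0.00415) and -0.52 (adjusted p = 0.0806).

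The members' responses in the 2 models were compared directly by the difference of the differences, implanted minus spontaneous. No member was called (limma; 22 of 86 at an unadjusted p under 0.05, beside 13.4% of all genes), while 69 of all 10424 genes, or 0.662%, were. The members' median was -0.17 beside -0.02 over all genes, and 76 of 86 estimates were lower in implanted than in spontaneous tumours. The lowest p was that of Cox7a2l (-0.59 ± 0.12, adjusted p = 0.0742), which was called when the shallow implanted cGAMP library was left out (-0.66 ± 0.12, adjusted p = 0.0475) and in no other of the 20 alternatives, where adjusted p was between 0.0516 and 0.359. No other member was called in any of them. Ndufv3 followed (-0.54 ± 0.13, adjusted p = 0.109), and on the other side, among members of at least 10 CPM, stood Ndufaf4 (0.21, adjusted p = 0.608) and Atp5g1 (0.14, adjusted p = 0.755). No single member was thus shown to respond differently in the 2 models.

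**Figure D4:**
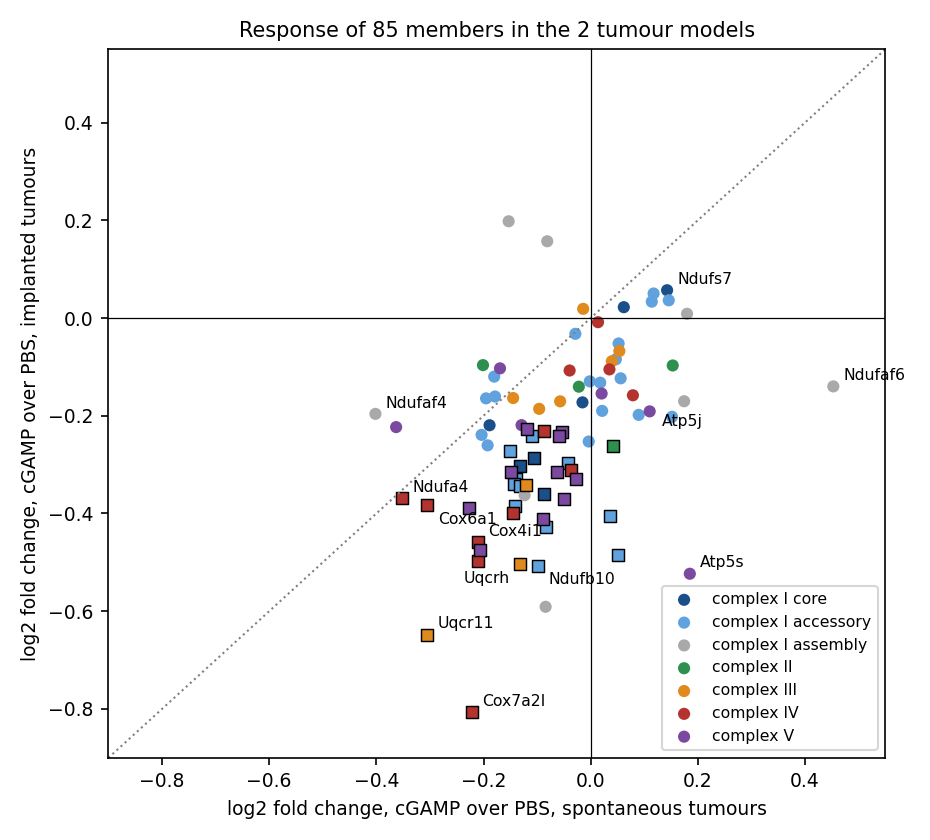
Log2 fold change of cGAMP over PBS in spontaneous (horizontal) and implanted tumours (vertical) for 85 members, coloured by complex; outlined squares are called in implanted tumours, the dotted line marks equal responses, and Cox4i2 (1.54, 1.04) lies outside the plotted range. Of the 86 tested members 76 lie below the dotted line and 55 have negative estimates in both models.

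For 8 members the libraries did not overlap in either model and moved in opposite directions, up in spontaneous and down in implanted tumours: Atp5j, Cox7a2, Cox8a, Ndufa8, Ndufaf3, Ndufaf6, Sdhb and Uqcrb, beside 4.69% of all genes with opposite directions of either kind. Cox7a2 is an example, at 346 and 346 CPM and then 366 and 366 CPM in spontaneous tumours, against 374 and 410 CPM and then 340 and 363 CPM in implanted ones. Ndufa8 had 308 and 300 CPM and then 310 and 337 CPM, against 338 and 342 CPM and then 305 and 288 CPM. None of the 8 was called in either response or in their difference, where adjusted p was 0.362 for Cox7a2 and 0.277 for Ndufa8.

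Without agonist, few members were called between the 2 models, but most estimates were higher in implanted tumours. In the PBS libraries 2 of 86 members were called higher in implanted tumours and 0 lower, beside 3.39% and 4.44% of all genes, with a median of 0.10 beside -0.06 over all genes and negative estimates for 16. Both implanted libraries lay above both spontaneous ones for 43 members and below them for 9, beside 21.5% and 36.5% of all genes. Ndufc1, a small accessory subunit of complex I, had 142 and 132 CPM in spontaneous and 167 and 173 CPM in implanted tumours (0.31 ± 0.08, adjusted p = 0.0432). Ndufaf6, an assembly factor under 10 CPM and named after its values were seen, had 6.29 and 7.15 CPM against 12.8 and 11.3 CPM (0.76 ± 0.18, adjusted p = 0.0335). Both calls depended on single libraries: 0 members were called without the second spontaneous PBS, either implanted PBS or either spontaneous cGAMP library, 1 without the first spontaneous PBS library, which was Cox4i2 and lower (-2.52, adjusted p = 0.00449), and 6, of which 5 higher, without either implanted cGAMP library. Next by p among members of at least 10 CPM, not called, were Ndufv3 upwards (105 and 98.7 CPM against 125 and 134 CPM, adjusted p = 0.0501), and Ndufa6 and Ndufaf4 downwards (adjusted p = 0.271 and 0.376). With median-of-ratios scaling 7 were called, all higher, and the share of all calls that were higher went from 43.3% to 67.9%.

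After cGAMP too, few members were called between the 2 models, a smaller share than of all genes in either direction. Of 86 members, 5 were called lower in implanted than in spontaneous tumours and 0 higher, beside 8.53% and 5.23% of all genes, and the median of -0.09 lay near that of all genes at -0.07. Both implanted libraries were below both spontaneous ones for 43 members and above them for 7, beside 35.6% and 21.4% of all genes. Cox7a2l had 355 and 404 CPM in spontaneous and 263 and 238 CPM in implanted tumours (-0.60 ± 0.09, adjusted p = 0.00388), and Uqcrh had 457 and 481 CPM against 389 and 358 CPM (-0.33 ± 0.07, adjusted p = 0.0182). Ndufb11 had 225 and 217 CPM against 175 and 183 CPM (-0.31 ± 0.07, adjusted p = 0.0213), and Atp5j, a stalk subunit of complex V that is named here because only 5 members were called, 506 and 508 CPM against 414 and 439 CPM (-0.25 ± 0.07, adjusted p = 0.0444). Cox4i2 was the fifth (-2.19 ± 0.45, adjusted p = 0.0143), with the mural cell shares given above, and its level within those cells, differing in the same direction. Without the second spontaneous cGAMP library 0 members were called and without the first 1 was, while 4 or 5 were called without any other. The positive estimates with the lowest unadjusted p among members of at least 10 CPM, Uqcrq at 0.17 (278 and 283 CPM against 325 and 308 CPM) and Atp5b at 0.12 (472 and 482 CPM against 521 and 515 CPM), were not called (adjusted p = 0.14 and 0.264), and under median-of-ratios scaling Uqcrq was (3 calls in all, 2 of them lower, and 58.7% rather than 38.0% of all calls higher).

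Within each library the members also differed between cells. Cells with UMIs of at least 2 proliferation genes gave a higher share of their UMIs to the members than the other ECs of the same library in all 8 libraries, by 0.129 to 0.296 percentage points. In the first spontaneous PBS library, for example, the share was 2.13% in 129 such cells and 1.88% in 836 others, and in the second implanted PBS library 2.29% in 231 and 1.99% in 866. With the library as a block, 32 of 87 tested members were called higher and 0 lower, beside 10.1% and 11.0% of all genes, and the median was 0.15 beside -0.04. Among the 1158 genes at the members' level 205 were called higher (17.7%), and of the 42 members in that range 17 were. Complex V led with 12 of 16, among them Atp5g2 (0.27 ± 0.05, adjusted p = 0.000804) and Atp5b (0.19 ± 0.06, adjusted p = 0.0267), followed by 9 of 29 accessory subunits of complex I, 6 of 14 tested subunits of complex IV that include Cox4i1 (0.12 ± 0.04, adjusted p = 0.0344), and Sdhb and Sdhd of complex II (0.25 in both, adjusted p = 0.0406 and 0.0243). Genes of the translation machinery moved with them: 54 of 82 cytosolic and 25 of 77 mitochondrial ribosomal protein genes were called higher. The mitochondrially encoded genes did not, with 1 called lower and 0 higher.

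Of the 36 members called lower after cGAMP in implanted tumours, 19 were among the 32 that were higher in proliferating cells, which is 52.8% of the former and 59.4% of the latter. Over all genes 365 were shared, 21.3% of the 1713 called lower and 32.9% of the 1111 called higher. Members were called more often than all genes in both comparisons, and 32 of 87 were higher in proliferating cells whatever their response. The shares over all genes are therefore no matched baseline, and no test of these shares was made. Cox7a2l, Uqcr11 and Uqcrh, which were among the largest falls, were not among the 32. Their differences between proliferating and other cells were -0.04, 0.01 and 0.04 (limma adjusted p = 0.696, 0.902 and 0.525). The cells with proliferation UMIs were deeper, with median UMIs of 16870 against 8623 in the first spontaneous PBS library and 30008 against 2839 in the first implanted cGAMP library. When every cell was thinned to 2000 UMIs, only 5 libraries kept 10 or more such cells, the median over members was 0.24 beside -0.63 over all genes and 5 were called higher. Leaving out single libraries gave 15 to 29 calls, the lowest 3 without the first spontaneous PBS library (15), the second implanted PBS library (16) and the first implanted PBS library (17).

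Cells with UMIs of at least 2 genes of the tip-like list, and those with 2 or more of the arterial list, gave the members a lower share than the other cells of the library in 8 of 8 libraries each, by 0.058 to 0.309 and by 0.021 to 0.315 percentage points. This was not particular to these 2 lists: cells with UMIs of 2 or more lymphatic genes were lower in 8 of 8 libraries and those with venous or stalk-like genes in 7 of 8, while those with genes of the Aqp7 capillary list were lower in the 4 PBS libraries and higher in the 4 cGAMP libraries. The gates are wide ranges set by UMIs and are not cell types. In the first spontaneous PBS library, 523 cells were inside the tip-like gate and 442 outside. The arterial gate there held 633 cells against 332 outside, and the Aqp7 capillary gate 863 against 102. The gap for the tip-like gate was 0.212 and 0.309 points in the implanted cGAMP libraries against 0.148 and 0.107 after PBS. In spontaneous tumours it was 0.162 and 0.113 after cGAMP against 0.058 and 0.067. It was larger in every cGAMP library than in the PBS libraries of its model. For the arterial gate the gap was 0.069 and 0.048 after cGAMP against 0.309 and 0.315 after PBS in implanted tumours. In spontaneous tumours it was 0.021 and 0.210 against 0.268 and 0.148. These gates hold overlapping sets of cells and the gated cells are deeper, and the share varied with depth. In the PBS libraries, cells under 2000 UMIs gave the members 2.20% to 2.61% of their UMIs and cells of 5000 to 10000 UMIs 1.70% to 1.94%. Cells of at least 20000 UMIs gave 1.95% to 2.08% there. In the implanted cGAMP libraries these 3 shares were 1.67%, 1.60% and 1.74% in the first and 1.74%, 1.71% and 1.61% in the second. The part of depth in the gaps of the gates was not tested.

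**Figure D5:**
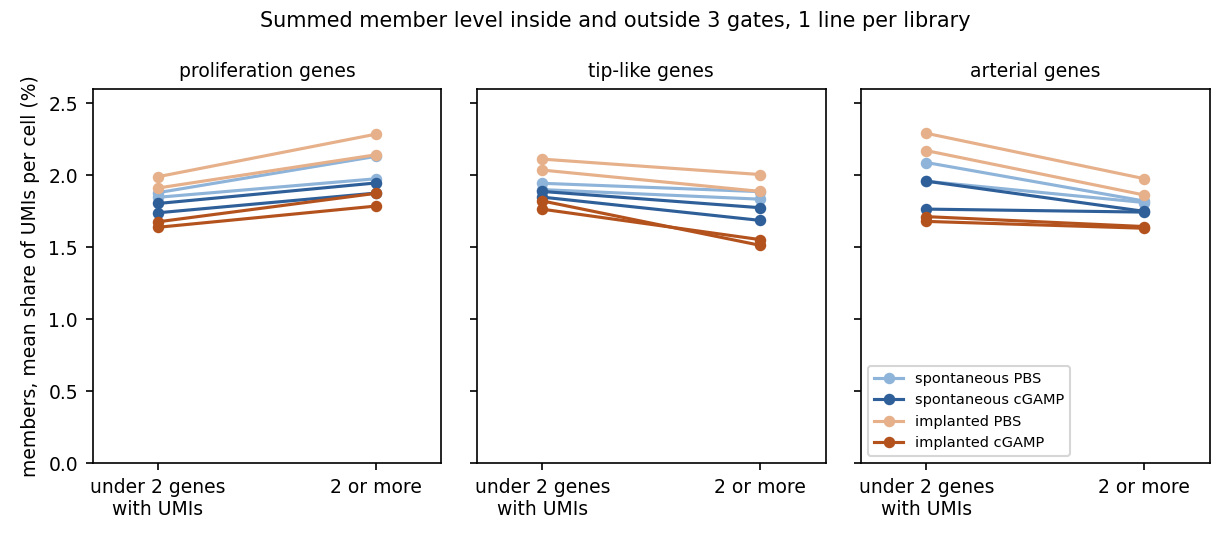
Mean share of UMIs held by the members (%) in cells with UMIs of fewer than 2 genes (left of each panel) and of 2 or more genes (right) of 3 lists, with 1 line per library; the axis starts at 0. All 8 lines go up for the proliferation genes and all 8 go down for the tip-like and arterial genes.

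The annotation sets limits to single values. The libraries count the 3′ ends of transcripts, so CPM is a share of molecules and was not divided by gene length. For 6 members a protein-coding gene of another name or a second copy overlaps on the same strand, among them Cox4i1, Ndufa13 and Atp5o.1, the name under which the tables list 1 of a pair of overlapping Atp5o genes on chromosome 16. The 3 Atp5g genes encode the same mature protein from different transcripts. Members lie on 19 chromosomes, and of the named members that were called, Cox7a2l, Ndufb10 and Ndufv3 are on chromosome 17 (starting at 83501918, 24722060 and 31520115, GRCm38), Uqcr11 on 10, Uqcrh on 4, Cox4i1 on 8, Ndufa4 on 6 and Ndufb11 on X.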

How the data were processed

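Libraries of 8 mice (4 groups, 2 per group) were processed by the authors with Cell Ranger 3.0.0 and Seurat 3.1.1 (submitters' processing notes) on mm10, which is GRCm38. The deposited values are the natural log of 1 plus UMIs scaled to a fixed total per cell, after the authors had filtered cells on detected genes and mitochondrial share. UMIs were recovered from them as whole numbers (tolerance 0.01). Doublets were not called. The level of a gene was its mean CPM over cells with a Pecam1 UMI, compared on log2(CPM + 1) with limma 3.58.1 (R 4.3.3, trend) over all 8 libraries in 1 fit, for genes reaching 5 CPM in at least 2 libraries, with Benjamini-Hochberg adjustment over all of them. No count model was fitted. Libraries are the replicates and each is 1 mouse, so p-values rest on 2 per group. The fit was checked on simulated data. Members and lists were chosen with earlier results of these data known. Genes were named by rule: up to 3 called members with the largest change per comparison and direction (mean of at least 10 CPM), filled to 2 by p where fewer were called, the highest member of each complex, and a fixed list of 25 subunits. Others are said to have been chosen after their values were seen or were named because 5 or fewer members were called. Alternatives changed scaling, pseudocount, filter, cells and libraries. Promoters are RefSeq's (GRCm38.p6).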

Additional observations from a re-analysis of the deposited data

How the results depend on the processing

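No called gene that is named changed sign under any alternative. With median-of-ratios scaling the members called numbered 0 in the spontaneous and 20 in the implanted response, 7 between models after PBS and 3 after cGAMP, and without a filter on low values 1 in the spontaneous response, 0 after PBS and 3 after cGAMP. The spontaneous response gave 1 call with all deposited cells, 9 with summed UMIs and 2 without cells carrying UMIs of other types. The PBS comparison gave 1 call each with summed UMIs, in cells with at least 2000 UMIs, without proliferating cells and without cells of other types, and the cGAMP comparison 2 without cells of other types. In deep cells without proliferation or other-type UMIs (added after the data were seen) there were 20 calls in the implanted response and 2 after cGAMP. Leaving out single libraries gave 0 to 7 calls in the spontaneous and 14 to 33 in the implanted response, 0 to 6 after PBS, 0 to 5 after cGAMP, 0 to 1 for the difference of responses and 15 to 29 between proliferating and other cells, where thinning to 2000 UMIs left 5. The summed level of the members in the spontaneous PBS group was 1.94% with all deposited cells, 1.85% in cells with at least 2000 UMIs and 1.97% with totals that leave out mitochondrial genes. With those totals it was 1.85% after cGAMP, and 2.09% and 1.72% in the implanted PBS and cGAMP groups.

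Replicate numbers do not mark paired mice, and the deviations of same-numbered libraries correlated at -0.22 between the spontaneous groups and at 0.13 between the implanted groups. With a replicate block the calls numbered 4, 31, 0, 1 and 6 for the spontaneous response, the implanted response, their difference, PBS and cGAMP, and with the spontaneous PBS numbers crossed (added after the data were seen) 4, 30, 0, 3 and 5. Of the counts and summed levels, 82 values stayed within the limits set for them and 49 moved. Groups of 2 libraries and, in the first implanted cGAMP library, shallow cells limit what could be detected.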

Other observations

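Some genes of glycolysis, the other route to ATP in these cells, were called higher where the respiratory genes were not. After cGAMP, 6 of the 14 tested were higher and 0 lower in spontaneous tumours, against 5 and 0 in implanted ones. Of all genes 5.09% and 8.6% were called higher and 7.59% and 16.4% lower. The medians of the 14 were 0.16 and 0.19 on the log2 scale, with 3 and 5 negative estimates. Pgk1, which yields ATP in glycolysis, stood at 138 and 136 CPM and then 201 and 182 CPM in spontaneous tumours (0.48 ± 0.08, limma adjusted p = 0.0064), and at 181 and 184 CPM and then 284 and 254 CPM in implanted ones (0.56 ± 0.08, adjusted p = 0.00151). Slc2a1, the glucose transporter, had 47.8 and 36.5 CPM and then 84.4 and 102 CPM in implanted tumours (1.14 ± 0.18, adjusted p = 0.00172), while its spontaneous groups overlapped (0.14, adjusted p = 0.632). Ldha, which turns pyruvate into lactate, was not called in either model (-0.06 and -0.21, adjusted p = 0.677 and 0.0937). No gene of this list was called in the difference of the responses (limma, 1 at an unadjusted p under 0.05). These 3 genes were chosen after their values were seen.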
